A study of Mus musculus with 2 samples.

Results

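NF-kB is a family of dimeric transcription factors that drive genes of inflammation and survival, and the 39 genes described here encode its subunits, inhibitors and kinases, the adaptors and receptors of TNF and Toll signalling upstream of it, and genes it is known to drive. They were chosen by name, with earlier results of these data known. A gene was taken in where the probe annotation held at least 1 probe set naming only that gene. This gave 34 genes with 70 probe sets, of 18193 genes and 45037 mouse probe sets on the arrays. No probe set named only Nfkb1, Chuk, Ripk1, Ripk2 or Traf3, and no signals of these 5 were analysed here.

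In resting cells NF-kB dimers are held in the cytoplasm by inhibitor of kB (IkB) proteins. In the canonical pathway, TNF or Toll receptors act through TRAF and RIP adaptors on the IkB kinase complex, which marks the inhibitors for breakdown, and freed dimers then induce their own inhibitors as feedback. In the non-canonical pathway, the kinase NIK, held low by TRAF and cIAP proteins, drives processing of p100 to p52, which pairs with RelB. Osteoblasts carry TNF and Toll receptors, and NF-kB in the bone-forming lineage is known for its part in inflammatory bone loss and in signals to osteoclasts.

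Total RNA came from primary osteoblasts of C57BL/6 mice, isolated by enzyme digestion from the skull caps of pups aged 5 days. One culture was given medium with 4 mM phosphate, added as sodium phosphate at pH 7.2, and the control kept the 1 mM phosphate of the medium at the same pH, both for 6 h without serum after a night of serum starvation. Sodium was therefore added along with phosphate, and cells from a digested skull cap are a mixture rather than a clone. Each condition was 1 Affymetrix array, so there was no replicate error and no test between conditions, and every difference below is one between these 2 arrays.

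Of the osteoblast markers, 7 of 7 with a probe set were above the signal floor on both arrays, with summed signals of 70509 in 4 mM phosphate and 56477 in control. Most of that difference came from Dmp1 (15707 in phosphate and 5505 in control), 3 of the 7 (Sp7, Alpl and Pth1r) had log2 ratios below 0, and the median was 0.11. Of 20 macrophage and osteoclast markers, 19 were measured, with summed signals of 30266 and 31487 in phosphate and control cultures, and 15 of the 19 had log2 ratios below 0 (median −0.33). The other 4 were above 0, as were 44.1% of all measured genes, whose median was −0.06. Cartilage markers were measured in 7 of 7 cases, summing to 16160 in phosphate and 16588 in control. Lymphocyte markers were at background in 5 of 5 cases, endothelial markers in 7 of 8 and granulocyte markers in 5 of 6. The part of any of these cell types in the results was not tested, and in such a mixture fewer cells of a type cannot be told apart from less RNA per cell.

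The kB site, the DNA element bound by NF-kB dimers, was searched as a decamer of 3 G, 1 purine, any 2 bases, 2 pyrimidines and 2 C, on both strands, in the 250 bases upstream of each RefSeq start (GRCm38.p6). Of 30 members with a promoter sequence, 9 (30%) held such a decamer at 1 or more of their starts, against 8.23% of all 27025 genes with a sequence. These 30 include Chuk, Ripk1 and Traf3, for which no signals were analysed, and Traf3 is among the 9. Of the members with a signal above the floor described below, 24 have a sequence and 8 of these (33.3%) held the decamer, against 10.7% of measured genes. The sequences below end at the base before the start. They are shown because they hold the decamer in 7 members that regulate the pathway itself, and because Bcl3 holds none. Bcl3 encodes an atypical IkB protein of the nucleus and had one of the highest ratios. Capitals mark the decamers, and a longer run of capitals holds overlapping matches. For Nfkb2 and Tnfaip3, which have 3 and 2 starts, the start farthest upstream is shown.
Nfkb2 (chr19:46304607-46304736, plus strand): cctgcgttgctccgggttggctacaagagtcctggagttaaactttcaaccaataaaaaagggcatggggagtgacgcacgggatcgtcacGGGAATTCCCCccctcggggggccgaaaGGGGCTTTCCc
Nfkbia (chr12:55492648-55492777, minus strand): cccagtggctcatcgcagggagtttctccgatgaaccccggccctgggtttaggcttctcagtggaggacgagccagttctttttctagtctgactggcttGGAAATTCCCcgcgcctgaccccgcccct
Nfkbie (chr17:45555570-45555699, plus strand): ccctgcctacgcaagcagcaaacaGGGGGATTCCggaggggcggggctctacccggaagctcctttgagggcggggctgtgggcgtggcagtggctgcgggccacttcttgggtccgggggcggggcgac
Rel (chr11:23770970-23771099, minus strand): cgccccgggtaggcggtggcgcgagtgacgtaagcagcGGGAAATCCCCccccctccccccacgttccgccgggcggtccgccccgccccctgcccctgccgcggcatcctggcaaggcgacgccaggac
Tnfaip3 (chr10:19015411-19015540, minus strand): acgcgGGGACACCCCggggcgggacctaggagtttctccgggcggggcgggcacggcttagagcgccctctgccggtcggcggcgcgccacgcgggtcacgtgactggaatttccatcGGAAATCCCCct
Tlr2 (chr3:83841609-83841788, minus strand): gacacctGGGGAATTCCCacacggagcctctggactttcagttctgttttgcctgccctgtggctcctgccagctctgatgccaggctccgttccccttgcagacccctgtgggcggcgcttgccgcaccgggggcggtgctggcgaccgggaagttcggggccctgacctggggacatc
Tnip1 (chr11:54962941-54963070, minus strand): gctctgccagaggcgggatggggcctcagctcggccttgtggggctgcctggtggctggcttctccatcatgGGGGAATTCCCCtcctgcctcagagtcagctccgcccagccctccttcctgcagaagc
Bcl3 (chr7:19822756-19822885, minus strand): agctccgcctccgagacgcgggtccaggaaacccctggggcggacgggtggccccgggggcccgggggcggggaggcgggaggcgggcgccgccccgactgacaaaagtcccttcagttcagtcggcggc

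Most of the measured members were brighter in 4 mM phosphate, by modest folds. The median of all signals, 21.5, served as a floor to which dimmer signals were raised. Of the 34 genes, 30 were above it on at least 1 array, and 29 of them on both. Of these 30, 6 (20%) were at least 2-fold higher in phosphate, against 2.30% of all 12276 measured genes. None was at least 2-fold lower, against 2.92% of all measured genes. At 1.5-fold, 18 members (60.0%) were higher, where 7.26% of all genes were, and 2 were lower, Birc2 and Cd40, where 12.1% of all genes were. The log2 ratio, phosphate minus control, was above 0 for 24 of 30 members, against 44.1% of all genes, and its median was 0.75 over the members and −0.06 over all genes. Because the members were chosen with earlier results of these data known, these shares are a description and no independent support. As a technical measure of error, the log2 ratios of several probe sets of 1 gene had a standard deviation of 0.42 for a dimmer signal of up to 100, 0.26 for one from 100 to 400, and 0.16 for brighter ones. It covers neither culture nor array differences.

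Poly-A spikes, bacterial RNAs put into each sample ahead of labelling, gave a median log2 ratio of 0.46. When they were set equal on the 2 arrays, the median of all genes moved to −0.52 and that of the members to 0.29. Then 4 members, Bcl3, Nfkbiz, Lcn2 and Saa3, were still at least 2-fold higher, where 1.05% of all genes were, and Birc2 and Cd40 were at least 2-fold lower, where 14.1% of all genes were. At 1.5-fold, the counts of 18 higher and 2 lower members became 5 higher (Relb with those 4), where 2.07% of all genes were, and 5 lower (Birc2, Cd40, Ikbkg, Ikbke and Tnip1), where 43.1% were. This scaling subtracts the same amount from every log2 ratio, so the distance of 0.81 between the members' median and that of all genes cannot change under it. Of the 30 members, 24 lay above the spread of their signal class, 3 below it and 3 within it, and with the spikes set equal 13 lay above, 6 below and 11 within. The share of all measured genes beyond this spread was not counted, so these counts do not set the members apart from other genes. Comparisons with the spread given for single genes below are for the signals as deposited, unless a setting is named. Directions given below for Nfkbib, Traf2, Tnfaip2 and Vcam1 turned under the spike scaling, with log2 ratios between −0.10 and −0.02.

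**Figure D1:**
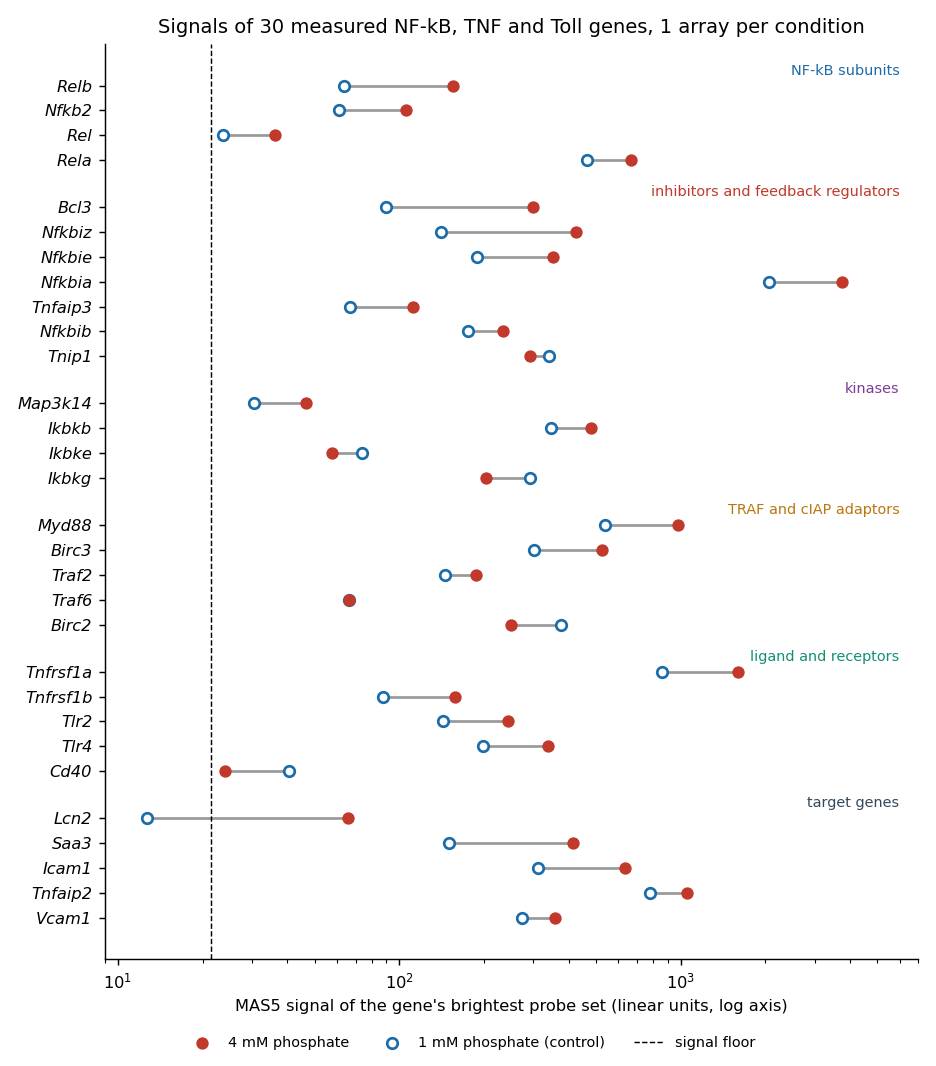
MAS5 signals (log axis) of the 30 measured members, with 1 row per gene grouped by role, filled points for the 4 mM phosphate array, open points for the control array and a dashed line at the signal floor. The filled point lies to the right for 24 genes, or 20 with the poly-A spikes set equal, and Lcn2 alone has its control signal under the floor.

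Among the NF-kB subunits, all 4 measured genes were brighter in phosphate, with log2 ratios from 0.52 to 1.30. Relb, the subunit that pairs with p52 in the non-canonical pathway, had a signal of 156 in phosphate and 63.4 in control, which made it 2.46-fold higher. Of all measured genes, 1.25% had a higher ratio than Relb, which fell short of 2-fold with a floor of 100 (log2 ratio 0.64) or with the spikes set equal (0.83). Nfkb2, which encodes p100 and p52, had signals of 106 in phosphate and 60.9 in control (1.74-fold higher), and its other probe set, with 71.3 in phosphate and 32.1 in control, gave a log2 ratio of 1.15. The probe sets of Nfkb2 therefore lay on both sides of 2-fold. Relb lay above the spread of 0.42 for dim probe sets under these settings too, whereas Nfkb2 was within it with a floor of 100 (log2 ratio 0.08) or with the spikes set equal (0.33). Rela, the transactivating p65 subunit of the canonical pathway, had 665 in phosphate and 464 in control, a log2 ratio of 0.52 against a spread of 0.16, but 0.06 and within the spread with the spikes set equal. Rel, the subunit c-Rel best known from lymphocytes, was close to the floor with 36.2 in phosphate and 23.7 in control (log2 ratio 0.61).

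Of the 7 inhibitors and feedback regulators, 6 were brighter in phosphate, and 2 were at least 2-fold higher. Bcl3, an atypical IkB protein that works in the nucleus with p50 and p52 dimers, had a signal of 298 in phosphate and 90.0 in control, 3.32-fold higher. Its log2 ratio of 1.73 cannot be ranked against that of the target gene Lcn2, which is a bound of at least 1.61 and came to 2.37 without a floor. Nfkbiz, which encodes IkB-zeta, a nuclear cofactor for secondary response genes such as Il6 and Lcn2, had 424 in phosphate and 141 in control, 3.00-fold higher. Its other probe sets disagreed on size but not on direction. One had 86.7 in phosphate and 62.0 in control (log2 ratio 0.48), and the other had 102 in phosphate and a control signal under the floor, a log2 ratio of at least 2.25.

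Nfkbia, which encodes IkB-alpha, the inhibitor that dimers freed from it induce again, was bright on both arrays, with 3748 in phosphate and 2067 in control (1.81-fold higher). The 5 probe sets of Nfkbia had log2 ratios between 0.86 and 1.37, so all lay above 1.5-fold and on both sides of 2-fold. Nfkbie, encoding IkB-epsilon, had 351 in phosphate and 188 in control (1.86-fold higher), although its dimmer probe set gave 81.4 in phosphate and 65.6 in control, a log2 ratio of 0.31. By brightest probe set, Nfkbib, encoding IkB-beta, differed least of the classical inhibitors, with 234 in phosphate and 175 in control (log2 ratio 0.41). The dimmer probe set of Nfkbie differed less than that. Of these 3 inhibitors, the promoters of Nfkbia and Nfkbie printed above hold the kB decamer and that of Nfkbib does not.

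Tnfaip3, which encodes the deubiquitinase A20, a brake on signalling from TNF and Toll receptors, had 112 in phosphate and 67.1 in control, 1.67-fold higher. Its second probe set was near background, with 24.7 in phosphate and the control under the floor, and gives only a bound of 0.20. Tnip1, whose product ABIN-1 works with A20, was the 1 gene of this group below 0, with 292 in phosphate and 342 in control (log2 ratio −0.23, within the spread of 0.26, but −0.69 and outside it with the spikes set equal). Tnip1 and Tlr2 hold the decamer in the same letters in the sequences above, with log2 ratios of −0.23 and 0.77.

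The kinases lay on both sides of 0, with a median log2 ratio of 0.06 over 4 measured genes. Ikbkb, the catalytic IKK-beta subunit of the canonical pathway, had 479 in phosphate and 345 in control (log2 ratio 0.47), and its other measured probe set gave 0.42. Map3k14, which encodes NIK, was dim with 46.6 in phosphate and 30.6 in control (1.52-fold higher), and 0.84 on its other probe set. Ikbkg, the regulatory subunit NEMO, had 203 in phosphate and 292 in control (log2 ratio −0.53), while its 6 probe sets ranged from −0.53 to 0.40. The positive value of Ikbkg came from a dim probe set, with 54.1 in phosphate and 40.9 in control. Ikbke, an IKK-related kinase induced by inflammatory signals in other cells, had 57.5 in phosphate and 73.8 in control (log2 ratio −0.36, within the spread of 0.42, but −0.82 and outside it with the spikes set equal).

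**Figure D2:**
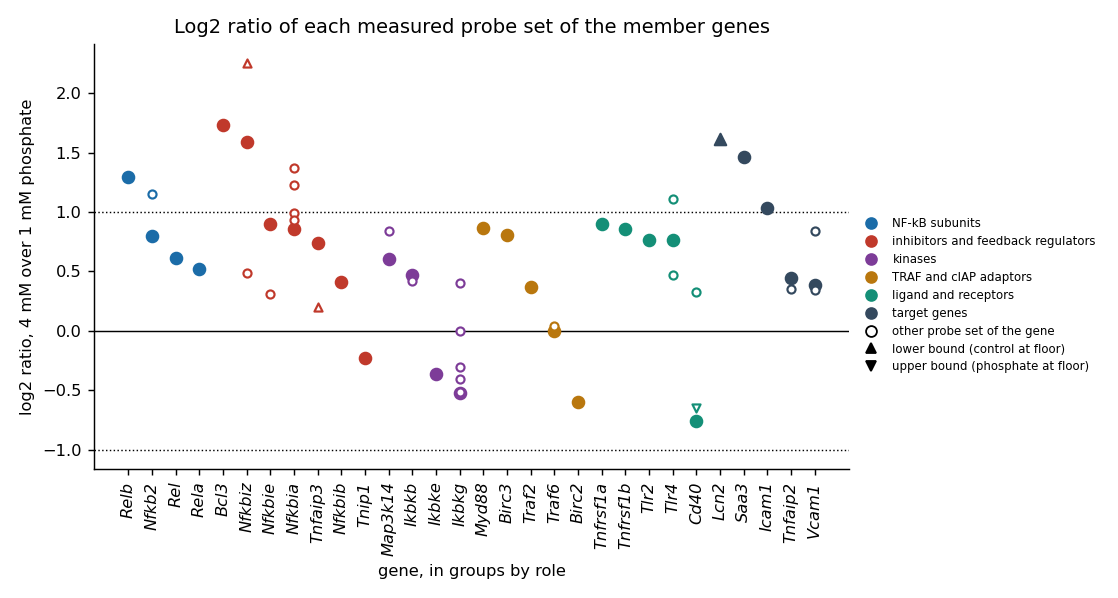
Log2 ratio (4 mM over 1 mM phosphate) of each measured probe set of the 30 members, grouped by role, with filled points for the probe set used for the gene, open points for its other probe sets, triangles for bounds and dotted lines at 2-fold. Nfkbia, with 5 probe sets, lies between 0.86 and 1.37, whereas the probe sets of Nfkbiz, Ikbkg and Cd40 spread widely.

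Across these groups, 12 members had 2 or more probe sets that cleared the floor on both arrays. In 9 of the 12 all such probe sets were above 0, in none were all below 0, and in Ikbkg, Cd40 and Traf6 the signs were mixed. Of all 4954 genes with as many such probe sets, 27.3% had all above 0 and 32.3% all below. Counted by probe set, 43 of 54 measured member probe sets were above 0, against 47.4% of all 21588 measured probe sets with 1 gene. Of the 54, 11 reached 2-fold higher, against 2.62% of all, and 0 reached 2-fold lower, against 2.54%.

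The adaptors split between genes that were higher in phosphate and genes that were lower or level. Myd88, the adaptor shared by most Toll receptors and the interleukin-1 receptor, had 977 in phosphate and 537 in control, 1.82-fold higher and well above the spread of 0.16 for bright probe sets. Birc3, which encodes cIAP2, a ubiquitin ligase at the TNF receptor and itself a known NF-kB target, had 526 in phosphate and 301 in control (1.75-fold higher). Birc2, encoding its relative cIAP1, went the other way, with 249 in phosphate and 377 in control, 1.51-fold lower. The log2 ratios of this pair, 0.81 for Birc3 and −0.60 for Birc2, lay on opposite sides of 0 by more than the spread of 0.26, each on 1 measured probe set. Traf2, which recruits the cIAPs, had 188 in phosphate and 145 in control (log2 ratio 0.37). Traf6, the ubiquitin ligase of the Toll branch, had 66.2 in phosphate and 66.4 in control. Traf1, a TRAF protein usually induced by NF-kB in immune cells, was under the floor on both arrays on each of its 2 probe sets.

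Tnf, the ligand, was at background, with signals under the floor on both arrays, so no ratio is given. Its receptors were measured. Tnfrsf1a, the receptor on most cell types, had 1602 in phosphate and 860 in control, 1.86-fold higher. Tnfrsf1b, the second TNF receptor, had 158 in phosphate and 87.3 in control (1.81-fold higher) on 1 probe set, its other being under the floor.

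Toll receptors gave like values. Tlr2, which recognises bacterial lipoproteins, had 243 in phosphate and 143 in control, 1.70-fold higher. Tlr4, the lipopolysaccharide receptor, had 338 in phosphate and 199 in control (1.70-fold higher), with log2 ratios of 1.11 and 0.47 on its other measured probe sets. Macrophages carry both receptors too. Of 19 measured macrophage and osteoclast markers, 15 had ratios below 0, among them Csf1r at −0.56 and Adgre1 at −0.55. The other 4 were above 0, with Fcgr1 the highest at 0.45, and 44.1% of all measured genes were above 0. The part of macrophages in the Tlr2 and Tlr4 values was not tested. Cd40, a receptor of B cells and macrophages that feeds the non-canonical pathway, was dim, and its probe sets differed in sign. The brightest had 24.0 in phosphate and 40.7 in control (log2 ratio −0.76), but another probe set gave 34.1 in phosphate and 27.2 in control (0.33). The sign of Cd40 turned under quantile normalization (0.25) and with the least moved probe set.

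The target genes fell into 3 kinds. Saa3, Lcn2 and Icam1 were at least 2-fold higher in phosphate, Tnfaip2 and Vcam1 differed by less than 1.5-fold, and the colony-stimulating factor genes Csf2 and Csf3 were under the floor on both arrays. Saa3, an acute phase serum amyloid A made outside the liver, had 415 in phosphate and 150 in control, 2.77-fold higher. Lcn2, which encodes lipocalin-2, an iron-siderophore binding protein also secreted by osteoblasts, had 65.7 in phosphate and a control signal of 12.7 under the floor, which made it at least 3.06-fold higher. Icam1, an adhesion molecule for leukocytes, had 636 in phosphate and 311 in control, 2.05-fold higher. Icam1 was just past 2-fold, and fell short of it with a pseudocount (log2 ratio 0.98) or with the spikes set equal (0.57). The nearest members short of 2-fold were Nfkbie and Tnfrsf1a, both at 0.90. Vcam1, another leukocyte adhesion molecule, had 357 in phosphate and 273 in control (log2 ratio 0.38), with 0.35 and 0.84 on its other probe sets. Tnfaip2 had 1054 in phosphate and 775 in control (log2 ratio 0.44).

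Set against the promoters, the decamer was held by 6 of 15 members at least 1.5-fold higher and by 2 of the other 9 measured members with a sequence, against 10.7% of the 9921 measured genes with one. It was in 0 of the 4 members at least 2-fold higher that have one (Bcl3, Icam1, Saa3 and Lcn2), and in 18.0% of the 217 genes at least 2-fold higher overall. No sequence was at hand for Relb and Nfkbiz. Sites outside the window or with other letters were not searched.

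**Figure D3:**
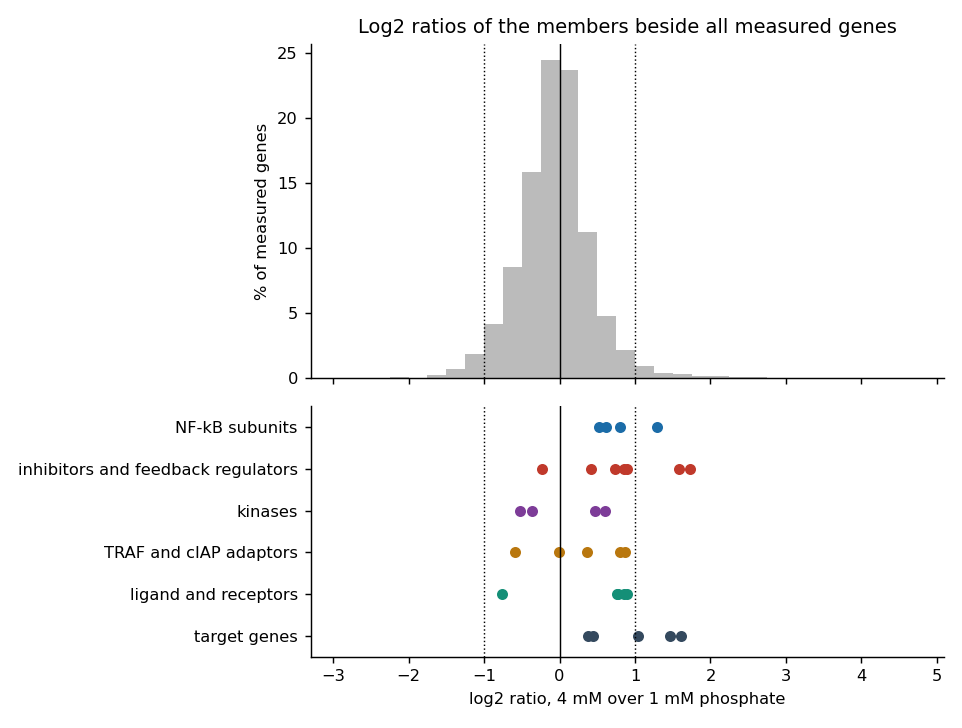
Upper panel, share of the 12276 measured genes in each log2 ratio bin (4 mM over 1 mM phosphate). Lower panel, the log2 ratios of the 30 measured members by role, with dotted lines at 2-fold. The subunits and target genes all lie above 0 (Tnfaip2 and Vcam1 only without the spike scaling), the kinases lie on both sides, and none of the members lies beyond 2-fold lower.

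Other genes of the pathway were counted in 3 lists, of receptors and adaptors, of kinases and regulators, and of target genes. Of 25 measured receptor and adaptor genes, 3 reached 2-fold higher, against 2.30% of all measured genes, and 0 reached 2-fold lower, against 2.92%. The median log2 ratio was 0.22 over this list and −0.06 over all genes. Il1r1, the signalling receptor of interleukin-1, had 644 in phosphate and 136 in control, 4.73-fold higher. Tnfrsf12a, the receptor of the TNF relative TWEAK, had 4165 in phosphate and 928 in control (4.49-fold higher), with a log2 ratio of 2.05 on its other probe set. Cd14, the lipopolysaccharide co-receptor of Tlr4, had 671 in phosphate and 291 in control (2.31-fold higher). Next was Traf3ip2, an adaptor of interleukin-17 receptors, at 0.70. The lowest of this list were the double-stranded RNA receptor gene Tlr3 at −0.78 and the death domain adaptor gene Fadd at −0.52.

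Kinase, ubiquitin and regulatory genes of NF-kB activation had a median of −0.01 over 35 measured genes. In this list 2 were at least 2-fold higher and 1 lower, where 2.30% and 2.92% of all measured genes were. Both higher genes had control signals under the floor, and none of the list reached 2-fold higher with a floor at the 65th percentile or at 100, with the spikes set equal, or where both arrays had to exceed the floor. Map3k8, encoding the kinase TPL2, reached 58.9 in phosphate (at least 2.74-fold higher), and Zc3h12a, encoding the RNase Regnase-1 that degrades cytokine mRNAs, reached 48.1 (at least 2.24-fold higher). Rnf31, a subunit of the linear ubiquitin ligase, was at 0.75, and Nlrc5 at 0.62 or more. Pdlim2, whose product promotes breakdown of p65, had 1264 in phosphate and 2897 in control, a log2 ratio of −1.20. Tab1, a partner of the kinase TAK1, was next lowest at −0.80.

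Of 32 measured NF-kB target genes outside the members, 13 reached 2-fold higher, against 2.30% of all measured genes, and 0 reached 2-fold lower, against 2.92%. The median was 0.70. This list overlaps cytokine and early response genes already known to be high on these arrays and is no independent support. Its 4 highest genes, Il6, Ptgs2, Cxcl5 and Mmp3, had log2 ratios between 3.75 and a lower bound of 4.95. These were above the value of every measured member other than Lcn2, and above the bound given for Lcn2. Its lowest were the immunoproteasome gene Psmb9 at −0.89 and Il15 at −0.46, an upper bound because its phosphate signal was under the floor. With the spikes set equal, the medians of the 3 lists were −0.24 for receptors and adaptors, −0.47 for kinases and regulators and 0.24 for target genes. In the same order, 2, 0 and 13 genes were then at least 2-fold higher, where 1.05% of all genes were.

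**Figure D4:**
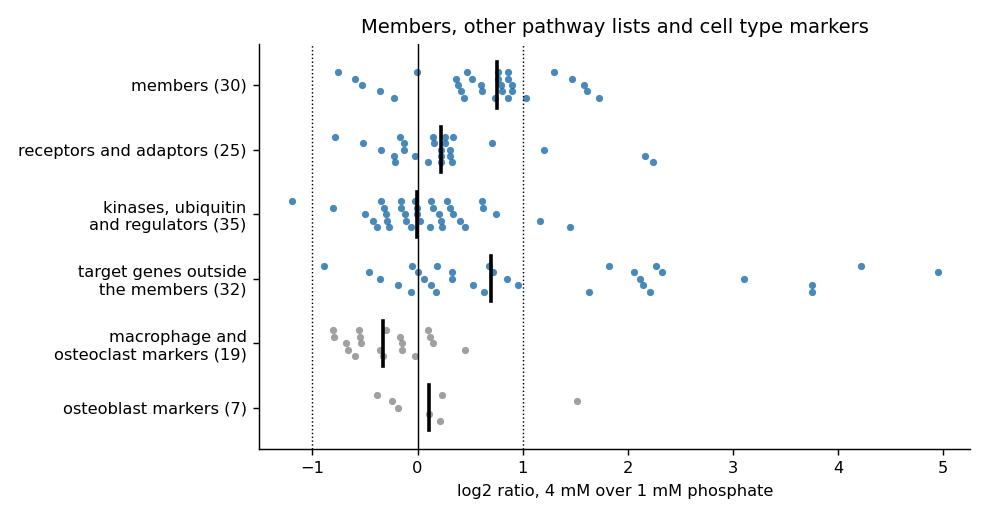
Log2 ratios (4 mM over 1 mM phosphate) of the members, the 3 other pathway lists and the macrophage and osteoblast markers, with 1 point per measured gene, the number of genes in brackets, a bar at each median and dotted lines at 2-fold. The medians are 0.75 for the members, 0.22 for receptors and adaptors, −0.01 for kinases and regulators, 0.70 for other target genes, −0.33 for macrophage and osteoclast markers and 0.11 for osteoblast markers, and all are 0.46 lower with the poly-A spikes set equal.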

How the data were processed

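The deposited intensity values, 1 linear MAS5 signal per probe set and array, were made by the authors with GCOS 1.4 and its MAS5 algorithm, per the submitters' processing notes. Each array is scaled by 1 factor, and on both arrays the mean was 200.0 after trimming 2% of probe sets at each end. Such scaling cannot show a change in total mRNA per cell. Genes were named from probe sets annotated to 1 gene, with symbols checked by Entrez identifier against RefSeq (GRCm38.p6), which changed 0.

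Signals were raised to a floor, the pooled median of both arrays, and log2 ratios are phosphate minus control. A gene was measured where any of its probe sets was above the floor on at least 1 array, and its value is that of its brightest such probe set by mean log2 signal. A ratio with 1 array at the floor is given as a bound. Depth has no counterpart on arrays, and with 1 array per group their number limits the precision and no test was run. The functions were tested on simulated data.

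The members and lists were chosen with earlier results of these data known. Every member could be named, and from each other pathway list the 4 highest and 2 lowest genes. Other settings were 4 floors (none, the pooled 35th and 65th percentiles, and 100), a pseudocount, quantile normalization, loess, poly-A spikes at equal signal, 2 other choices of probe set, and genes above the floor on both arrays. Python 3.11.15, numpy 2.4.6, pandas 2.3.3 and statsmodels 0.14.6 were used.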

Additional observations from a re-analysis of the deposited data

Results flagged for a closer look

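Spike probe sets of the manufacturer, left out of all gene comparisons, were brighter on the phosphate array. The median log2 ratio, phosphate minus control, was 0.46 over 24 poly-A spike probe sets, with a range of 0.20 to 0.65. It was 0.23 over 18 hybridisation spike probe sets, with a range of 0.14 to 0.47. The members' values with poly-A spikes set equal are given with the results, and the cause of the difference was not tested.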

How the results depend on the processing

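Under 11 other settings, 4 to 7 members were at least 2-fold higher, and their median log2 ratio was 0.53 to 0.86 above that of all genes (a distance that the spike scaling cannot alter). The share of members at least 2-fold higher was 13.3% to 20.6%, and that of all genes was 1.05% to 11.7%, highest without a floor. With poly-A spikes at equal signal, 2 members were at least 2-fold lower and the members' median was 0.29, because that scaling moves every log2 ratio by the same −0.46. Without a floor, 1 member was at least 2-fold lower (Csf2), where 10.1% of all genes were, and the highest count of higher members included Csf3. Both genes were under the main floor on both arrays. That highest count, 7 of 34 members (20.6%), stood beside 11.7% of all genes, whereas the main setting had 20% of members beside 2.30%. No 2-fold lower member was found under the other 9 settings. Bcl3, Saa3 and Lcn2 were past 2-fold in every setting that gave them a value, and Nfkbiz in all but that of the least moved probe set (0.48). Relb and Icam1 lost 2-fold in 2 settings each, with lowest values of 0.64 and 0.57. Of 318 values of single members under these settings, 275 moved by less than the spread between probe sets, and 43 moved by more. These 43 include all 30 members under the spike scaling, whose shift of 0.46 exceeds even the largest spread, 0.42. No member past 2-fold changed sign, but Cd40, counted as 1.5-fold lower, turned to 0.25 under quantile normalization and 0.33 with the least moved probe set. Among members near 0, Traf6 turned in 3 settings, and Nfkbib, Traf2, Tnfaip2 and Vcam1 with the spikes set equal. Among kinase and regulatory genes, the count of 2 at least 2-fold higher fell to 0 in 4 settings, all named with the result. No paired analysis was possible because each group had 1 array.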
